A study of Mus musculus with 6 samples.

Results

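The Kruppel-like factors are a family of transcription factors with a carboxy-terminal block of zinc fingers that binds CACCC and GC boxes in promoters. Their expression was described in CD11b+Gr-1+ cells from mouse liver, the surface phenotype that the labels equate with myeloid-derived suppressor cells. The description covers 10 members, Klf2, Klf3, Klf4, Klf6, Klf7, Klf8, Klf9, Klf10, Klf11 and Klf13, out of 19938 genes with a single symbol on the array. These names were chosen by symbol with earlier results of the same arrays known. Where a gene had several rows the brightest was to stand for it, but each member had 1 row. The values below therefore describe the members, and the share of the family that changed supports nothing on its own.

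The treated group was 3 arrays of cells from mice injected with type IV concanavalin A (Con A), a jack bean lectin used to set off T-cell-driven hepatitis in mice. The other group was 3 arrays from mice injected with PBS, which the sample titles call untreated. All mice were C57BL/6 and carried EL4 tumours, a transplanted T lymphoma line, and all were killed 3 hours after the injection. The design text gives the Con A dose as 12.5 mg/kg and the treatment field as 12.5 ug/kg, so the dose is unsettled. The labels count 3 mice per group without tying each array to 1 mouse, and p-values measure the spread between these arrays, which may be technical. The Gr-1 antibody binds both granulocytic and monocytic cells, so the sort holds a mixture.

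Within the family, KLF1, KLF2, KLF4, KLF5, KLF6 and KLF7 are classed as activators, KLF3, KLF8 and KLF12 as repressors that bind the corepressor CtBP, and KLF9, KLF10, KLF11, KLF13, KLF14 and KLF16 as repressors that bind Sin3A. In myeloid cells KLF4 is known for driving monocyte differentiation and KLF2 for restraining inflammatory activation, while KLF6 is known in macrophages for favouring it. Several members are early targets of outside signals, such as KLF9 of glucocorticoids and KLF10 and KLF11 of TGF-beta.

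Levels are log2 values normalised by the authors, and differences are Con A minus PBS from limma fitted to all genes, with p-values adjusted over all of them and a threshold of 0.05. Array medians lay between 7.05 and 7.08, and no detection calls were used here. After Con A 5 of the 10 members rose and 0 fell. Over all genes tested, 11.8% passed the threshold, 4.59% as rises and 7.22% as falls. The groups did not overlap for 8 members, 7 of them higher and 1 lower after Con A, against 29.9% of all genes. The median difference of the members was 0.39, against 0.024 over all genes. Each functional class held members that passed and members that did not. Of the activators on the list 2 of 4 rose, of the Sin3A-binding repressors 2 of 4 and of the CtBP-binding repressors 1 of 2.

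**Figure D1:**
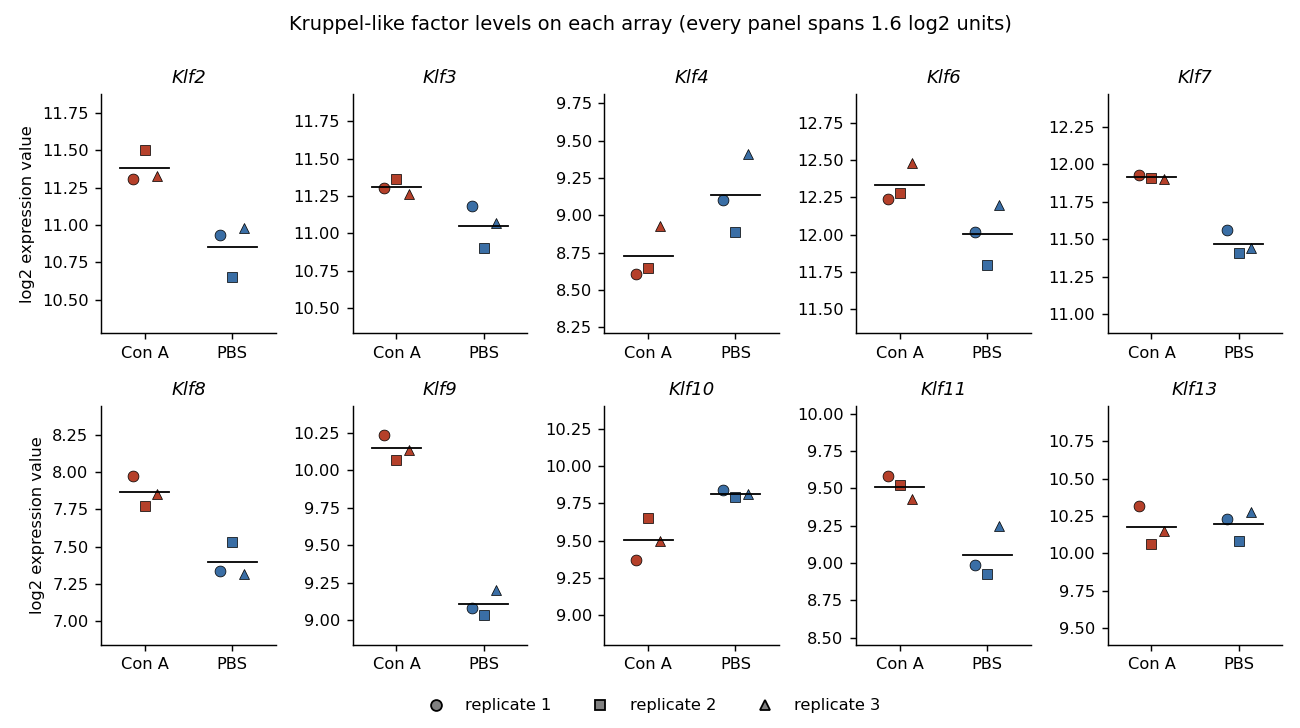
Log2 expression value (vertical axis) of each of the 10 Kruppel-like factors on the 3 Con A arrays and the 3 PBS arrays, with marker shapes for replicates and a line at the group mean. Klf9 shows the widest gap, with Con A arrays between 10.07 and 10.24 and PBS arrays between 9.03 and 9.20, whereas Klf4 and Klf13 overlap between the groups.

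Klf9, which encodes a Sin3A-binding repressor induced by glucocorticoids and thyroid hormone, had the largest difference among the members. Its level was 10.24, 10.07 and 10.14 on the Con A arrays, against 9.08, 9.03 and 9.20 on the PBS arrays. The lowest Con A array lay 0.87 above the highest PBS array, a gap several times the SD within either group (0.08 after Con A and 0.09 after PBS). Klf9 (probe set 10462091) rose 2.07-fold, a difference of 1.05 ± 0.08 (SE) with a 95% interval of 0.86 to 1.24 and adjusted p = 0.00081. It passed in all 15 alternative settings, at adjusted p up to 0.0247, and with 1 array left out its difference stayed between 1.00 and 1.10.

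The RefSeq window of 300 bases around the Klf9 start, from 250 bases before it to 50 after, is shown because this gene had the largest difference among the members. It lies at chr19:23140976-23141275 on the plus strand of GRCm38.p6, and capitals mark the CACCC box, the sequence the family itself can bind.
Klf9: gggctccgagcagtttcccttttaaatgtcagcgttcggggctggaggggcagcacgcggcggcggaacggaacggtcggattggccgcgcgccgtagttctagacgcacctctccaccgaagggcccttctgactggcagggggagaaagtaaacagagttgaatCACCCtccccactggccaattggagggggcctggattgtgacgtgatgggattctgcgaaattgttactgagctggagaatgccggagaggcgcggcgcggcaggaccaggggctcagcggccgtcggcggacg
The window holds 1 CACCC box (CACCC on either strand), which starts 84 bases before the transcription start. Its GC content is 63.3%, against a median of 52.7% over 32851 such windows. It was the only member window without a GC box (GGGCGG on either strand), and the only one with a STAT element (TTCNNNGAA), whose letters occur in 8.3% of all windows.

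Klf11, the other Sin3A-binding member that rose and a relative of Klf10, had levels of 9.58, 9.52 and 9.43 on the Con A arrays, against 8.99, 8.93 and 9.25 on the PBS arrays. The groups were 0.17 apart, with PBS replicate 3 the nearest to the Con A arrays. Its difference was 0.46 ± 0.10 (SE), or 1.37-fold (adjusted p = 0.0297). The Klf11 call was lost when any array other than PBS replicate 3 was dropped. The limma adjusted p was then 0.0965, 0.101 and 0.0613 for dropping Con A replicate 1, 2 or 3, and 0.115 and 0.0893 for dropping PBS replicate 1 or 2. Dropping PBS replicate 3 gave 0.00621.

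Klf10, the TGF-beta-inducible early gene TIEG1, was the member whose arrays separated downward. It had levels of 9.37, 9.65 and 9.50 after Con A, against 9.84, 9.79 and 9.81 after PBS. The PBS arrays were tightly grouped (SD 0.02) and the Con A arrays spread more widely (SD 0.14). Its difference of -0.30 (95% interval -0.51 to -0.10) did not pass the test, at adjusted p = 0.0712. With array weights it passed, at adjusted p = 0.0448.

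Klf13, known in T cells as a regulator of the chemokine gene Ccl5, overlapped fully between the groups. Its levels were 10.32, 10.06 and 10.15 after Con A, against 10.23, 10.08 and 10.28 after PBS. The difference was -0.02 with a 95% interval of -0.24 to 0.20, and the limma adjusted p was 0.93.

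Among the activators, Klf2 and Klf7 rose by similar amounts. Klf2, a factor that holds T cells quiescent and restrains monocytes, had levels of 11.31, 11.50 and 11.33 after Con A, against 10.93, 10.65 and 10.98 after PBS. All Con A arrays lay above all PBS arrays, by at least 0.33. The difference was 0.52 ± 0.11 (SE), or 1.44-fold, with a 95% interval of 0.27 to 0.78 and adjusted p = 0.0206. Without Con A replicate 2, Con A replicate 3 or PBS replicate 1 the Klf2 call was lost, at limma adjusted p = 0.0821, 0.057 and 0.0626. The Klf2 difference in these fits was 0.46, 0.55 and 0.56, so it was smaller only without Con A replicate 2.

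Klf7 (probe set 10355141), best known for its role in neurons, had the smallest standard error among the members. It stood at 11.93, 11.91 and 11.90 after Con A, against 11.56, 11.41 and 11.44 after PBS. The Con A arrays differed from each other by far less than the gap of 0.34 between the groups. The difference was 0.45 ± 0.07 (SE), or 1.36-fold, with adjusted p = 0.00856, and it passed in all 15 alternative settings at adjusted p up to 0.0376. Klf7 and Klf9 were the members whose calls held throughout.

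Klf6, an early-response gene active in macrophages, was at 12.24, 12.28 and 12.48 after Con A, against 12.02, 11.80 and 12.20 after PBS. The groups were separated by 0.03, since PBS replicate 3 nearly reached the lowest Con A array. The difference was 0.33 (95% interval 0.04 to 0.61) and did not pass, at adjusted p = 0.142. It was 0.43 without PBS replicate 3, where it passed at adjusted p = 0.0472.

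Klf4, a driver of monocyte differentiation, was at 8.61, 8.65 and 8.93 after Con A, against 9.10, 8.89 and 9.41 after PBS. Con A replicate 3 lay just above PBS replicate 2, so the groups overlapped, and replicate 3 was the highest array in both groups. The difference of -0.41 (95% interval -0.75 to -0.06) did not pass, at adjusted p = 0.137, and with the replicate number as a block it passed at adjusted p = 0.0349. Of 14 measured monocytic markers, a list that includes Klf4, 5 fell and 1 rose, and the mean level of the list ranged from 9.97 to 10.49 on the Con A arrays and from 10.86 to 11.24 on the PBS arrays. F13a1, Ccr2 and Cx3cr1 fell by 2.16, 2.00 and 1.81, and Irf8 rose by 0.98. The list had 9 falls with the replicate block and 2 in the unmoderated test. Without PBS replicate 1 the falls numbered 3, and the rise of Irf8 was lost without Con A replicate 2 or 3 or PBS replicate 1 or 2. In bulk samples fewer cells of a type and less RNA per cell cannot be told apart, and the part of cell composition in the Klf4 values was not tested.

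Promoter windows of these activators are shown for Klf2, the member with a MEF2 element, for Klf7, the activator that rose in every setting, and for Klf4, the activator with the lowest difference. The window of Klf6, the other activator that did not pass, is not printed. Each spans 300 bases of GRCm38.p6, at chr8:72318812-72319111 (plus strand) for Klf2, chr1:64121340-64121639 (minus strand) for Klf7 and chr4:55532426-55532725 (minus strand) for Klf4. Capitals mark CACCC boxes, GC boxes and the MEF2 element, and marked sites may overlap.
Klf2: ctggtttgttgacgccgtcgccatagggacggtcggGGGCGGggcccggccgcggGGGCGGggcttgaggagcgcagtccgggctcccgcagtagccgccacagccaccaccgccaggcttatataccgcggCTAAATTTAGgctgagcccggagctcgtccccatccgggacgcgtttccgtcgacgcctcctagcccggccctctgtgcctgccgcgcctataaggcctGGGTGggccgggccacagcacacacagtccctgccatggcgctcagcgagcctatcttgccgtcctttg
Klf7: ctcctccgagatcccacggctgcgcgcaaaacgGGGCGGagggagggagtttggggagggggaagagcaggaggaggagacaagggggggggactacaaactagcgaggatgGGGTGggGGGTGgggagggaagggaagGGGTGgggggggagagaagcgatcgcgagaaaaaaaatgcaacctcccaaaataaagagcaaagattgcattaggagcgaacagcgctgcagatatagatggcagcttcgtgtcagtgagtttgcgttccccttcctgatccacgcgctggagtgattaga
Klf4: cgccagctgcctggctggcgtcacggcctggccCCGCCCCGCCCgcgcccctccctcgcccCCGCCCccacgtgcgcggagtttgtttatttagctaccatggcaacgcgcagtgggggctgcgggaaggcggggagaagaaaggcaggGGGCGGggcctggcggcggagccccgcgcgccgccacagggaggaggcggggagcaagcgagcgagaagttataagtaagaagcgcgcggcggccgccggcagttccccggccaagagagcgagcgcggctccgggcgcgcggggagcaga
The Klf2 window holds a MEF2 element from 118 to 109 bases before the start, 2 GC boxes and 1 CACCC box. A MEF2 element occurs in 3.19% of all windows and in 1 of the 10 windows found for members, that of Klf2. The Klf7 window holds 3 CACCC boxes and 1 GC box, and the Klf4 window 4 GC boxes and 0 CACCC boxes. Windows were found for 9 of the 10 members, with 2 for Klf8. Of these 10 windows 9 hold a GC box and 7 a CACCC box, against 35.7% and 57.5% of all windows, and their GC content ranged from 57.3% to 77.7%. None of the 10 windows holds an NF-kB element, which occurs in 8.46% of all windows. A STAT element is in 1 of the 10, against 8.3% of all windows. For so few windows both counts are near these shares. An SRF CArG box, in 1.63% of all windows, is in 1 window of Klf8. These are matches of letters and not shown to be bound.

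Of the CtBP-binding repressors, Klf8 rose and Klf3 did not pass. Klf8 had levels of 7.97, 7.77 and 7.85 after Con A, against 7.34, 7.53 and 7.32 after PBS. Its groups were 0.24 apart, and all its values lay not far above the array medians, where expression is not established. The difference was 0.47 ± 0.09 (SE), or 1.38-fold, with adjusted p = 0.0169. That call was lost without Con A replicate 1, Con A replicate 3 or PBS replicate 1, at adjusted p = 0.0583, 0.0567 and 0.0755.

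Klf3, a repressor known from erythroid and fat cells, was at 11.30, 11.36 and 11.26 after Con A, against 11.18, 10.90 and 11.07 after PBS. The Con A arrays lay close together and 0.07 above the highest PBS array. Its difference was 0.25 (95% interval 0.04 to 0.46, adjusted p = 0.13), and it missed the threshold in all 15 alternatives.

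The arrays of a group did not take each rank equally often among the members. PBS replicate 2 gave the lowest PBS value for 9 of the 10 members, Klf8 being the exception, while it was the lowest PBS array for 33.3% of all genes. PBS replicate 3 gave the highest PBS value for 6 members, against 32.6% of all genes. Among the Con A arrays the lowest value was spread over the 3 replicates, for 4, 3 and 3 members. In the fits with 1 array left out, the number of members that rose ranged from 2, without Con A replicate 3 or without PBS replicate 1, to 6 without PBS replicate 3.

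**Figure D2:**
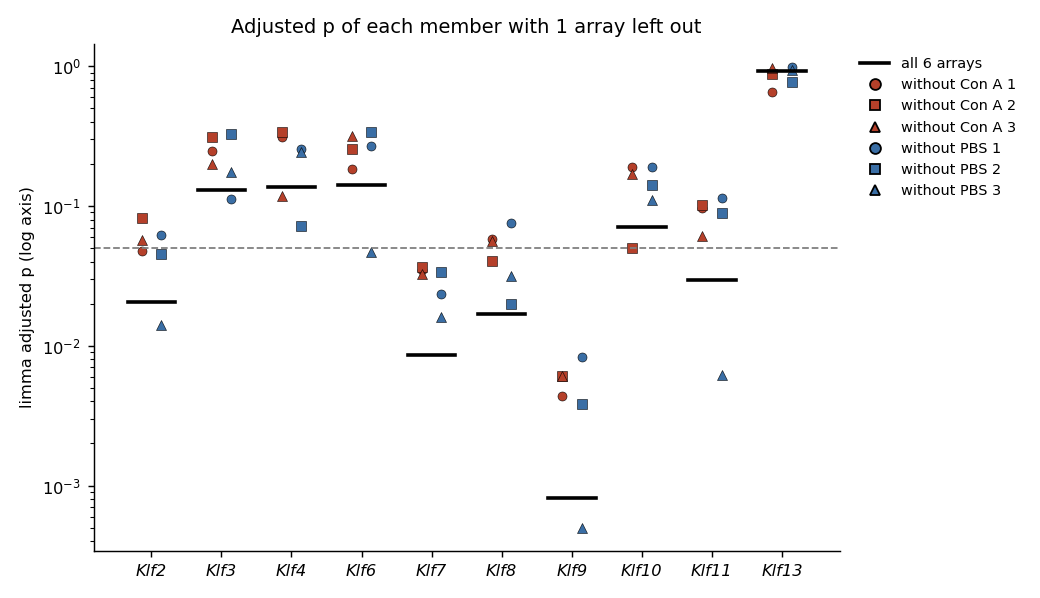
Adjusted p from limma (vertical log axis) of each of the 10 members with all 6 arrays (black line) and with each array left out in turn (red for a Con A array, blue for a PBS array, shape for the replicate); the dashed line is the threshold of 0.05. All points of Klf9 and Klf7 lie under the line, those of Klf2, Klf8 and Klf11 fall on both sides, Klf6 is under it only without PBS replicate 3, and those of Klf3, Klf4, Klf10 and Klf13 lie above it.

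None of the other measured family members passed the test. Of 7 other measured Klf genes, 0 rose and 0 fell by limma (0 at an unadjusted p under 0.05), with differences from -0.25 to 0.14. Klf5, an activator like Klf4, stood at 10.65 ± 0.12 after Con A and 10.90 ± 0.33 after PBS (SD, n = 3 each), a difference of -0.25 (95% interval -0.63 to 0.13, adjusted p = 0.416). PBS replicate 3 lay apart for this gene, and without it the difference was -0.43 and passed at adjusted p = 0.0331. Of 8 measured Sp factors, the relatives that bind GC boxes through a like set of zinc fingers, 0 passed in either direction (3 at an unadjusted p under 0.05). The highest was Sp4 at 0.25 (95% interval 0.05 to 0.46, adjusted p = 0.123). Klf1, Klf12, Klf15, Klf17, Sp5, Sp6, Sp7 and Sp8 had mean levels under the array medians. Expression is not established there, so the lack of calls among these genes says little. With dim genes left out, 3 of the other Klf genes and 4 Sp factors remained, and 0 of them passed.

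**Figure D3:**
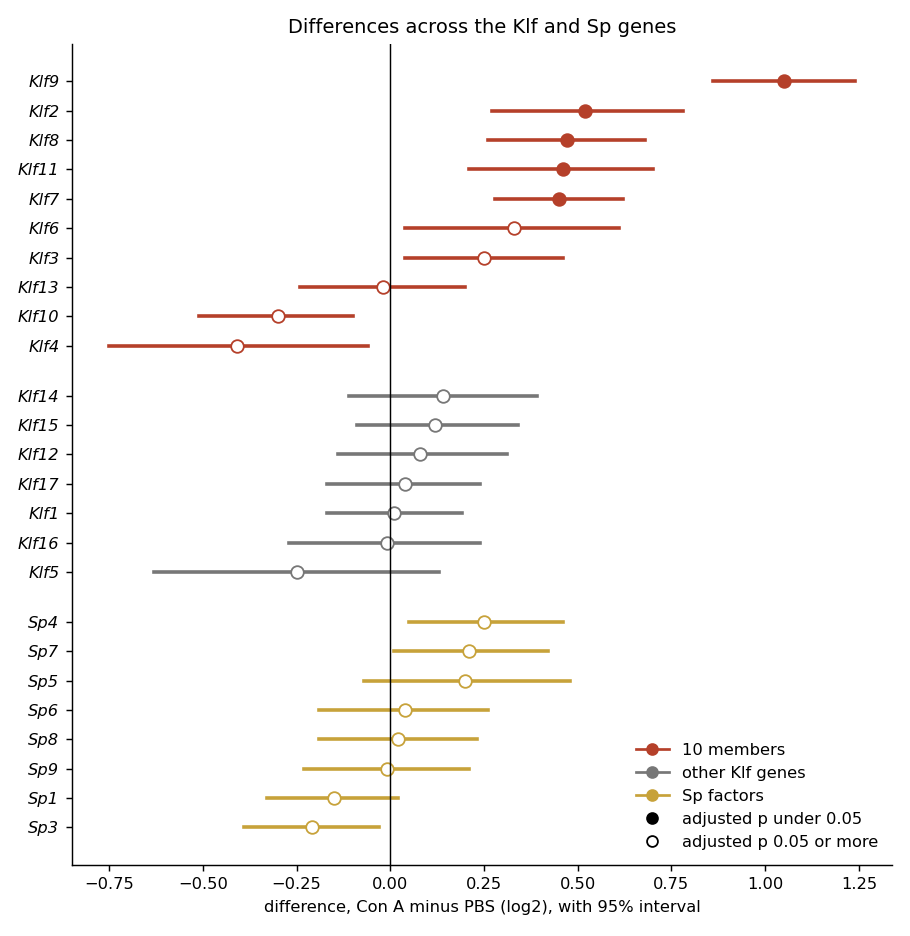
Difference between Con A and PBS (horizontal axis, log2) with its 95% interval for the 10 members, the 7 other measured Klf genes and the 8 Sp factors; filled points passed the adjusted threshold of 0.05. Filled points are Klf9, Klf2, Klf8, Klf11 and Klf7, all higher after Con A, and none lies among the other Klf genes or the Sp factors.

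Genes that act around the family were described from lists drawn up by function, with earlier results of the same arrays known. Their counts, like those of the cell marker lists, are descriptions. Over all genes tested 4.59% rose and 7.22% fell. The kinase ERK5 and the MEF2 factors are known in endothelial cells to raise Klf2 and Klf4. In that arm 4 of 7 genes fell and 0 rose, with a median of -0.47. Mef2c, a MEF2 factor of myeloid and lymphoid cells, fell by 0.80 to 6.74 ± 0.14 after Con A, against 7.54 ± 0.17 after PBS (SD, n = 3 each), near the array medians (adjusted p = 0.00481). Mapk7, which encodes ERK5, stood at 9.86 ± 0.09 after Con A and 10.45 ± 0.08 after PBS (SD, n = 3 each), and fell by 0.60 (adjusted p = 0.00472). Mef2d fell by 0.60 and the upstream kinase gene Map3k2 by 0.47 (adjusted p = 0.0327 and 0.00559). Klf2 rose in the same comparison, and a link between this arm and Klf2 was not tested. With 1 array left out 3 or 4 genes of the arm fell, and 2 in the unmoderated test.

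Of 11 corepressor and coactivator genes 3 fell and 0 rose, with a median of -0.14. The LIM protein gene Fhl3, whose product is known to bind KLF3, fell by 0.68, the corepressor gene Sin3b by 0.48 and the acetyltransferase gene Kat2b by 0.43. Dropping Con A replicate 2, PBS replicate 1 or PBS replicate 2 left 0 falls, dropping Con A replicate 1 left 1 and dropping Con A replicate 3 left 2. The unmoderated test also gave 0 falls. Ctbp1 and Ctbp2, which encode the corepressor bound by KLF3 and KLF8, differed by -0.07 and -0.14, and neither passed (limma adjusted p = 0.699 and 0.351). Sin3a, which encodes the partner of the KLF9 class, was at 9.43 ± 0.14 after Con A and 9.44 ± 0.09 after PBS (SD, n = 3 each; limma adjusted p = 0.988). Among 5 ubiquitin ligase genes 1 fell, Itch by 0.45, and the count was 0 when any array other than PBS replicate 3 was dropped, while Wwp1, whose product is known to mark KLF2 for degradation, differed by 0.11 (adjusted p = 0.443).

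In the TGF-beta arm, which is known to induce Klf10 and Klf11, 3 of 10 genes fell and 0 rose. Smad3 and Smad2, which encode the signal carriers of the pathway, fell by 1.82 and 0.37, and the receptor gene Tgfbr1 fell by 1.20. The ligand gene Tgfb1 differed by 0.03 (adjusted p = 0.882). Without any 1 of Con A replicate 1 or 2 and PBS replicate 1 or 2 there were 2 falls, and without PBS replicate 3 there were 4 falls and 2 rises. Klf11 rose and Klf10 had a negative difference on these same arrays, and a link to this arm was not tested.

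The glucocorticoid-responsive genes, the class to which Klf9 belongs, went both ways. Of 10 measured, 3 rose and 2 fell, with a median of 0.40. The clock gene Per1 rose by 1.22 and Nfkbia, also an NF-kB target, by 0.95, while Cebpd fell by 0.91 and the kinase gene Sgk1 by 0.62. Dropping PBS replicate 3 gave 6 rises, while dropping Con A replicate 2, Con A replicate 3 or PBS replicate 1 left 2. The list had 5 rises with array weights, and 1 rise and 1 fall in the unmoderated test. Mean levels of this list overlapped, at 10.53 to 10.78 on the Con A arrays and 10.07 to 10.72 on the PBS arrays. Of 20 immediate early genes, which like Klf2, Klf4, Klf6 and Klf10 can be switched on by handling and sorting, 3 rose and 1 fell. Ier3, Maff and Myc rose by 1.44, 1.36 and 0.96, and Fos fell by 0.74. The rises numbered 6 without PBS replicate 3, 2 without Con A replicate 1, 1 without PBS replicate 2 and 0 when any of the other arrays was dropped. The unmoderated test gave 0 calls in this list. Their mean level also overlapped, at 10.18 to 10.70 after Con A and 9.85 to 10.62 after PBS, and the part of handling in the Klf values was not tested.

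Genes known from other cell types to be raised or lowered by KLF2 or KLF4 were counted as separate lists. Of 9 measured genes that these factors raise elsewhere, 4 rose and 2 fell, and in the unmoderated test 0 rose and 0 fell. Pparg and Mrc1, markers of alternative macrophage activation, rose by 1.80 and 1.69 and Arg1 by 1.00, whereas the anticoagulant receptor gene Thbd, a KLF2 target in endothelium, fell by 1.64 to 6.54 ± 0.27 after Con A, against 8.18 ± 0.30 after PBS (SD, n = 3 each). Their adjusted p in the unmoderated test was 0.0862 for Pparg, 0.0653 for Mrc1, 0.0772 for Arg1 and 0.0539 for Thbd. Arg1, Mrc1, F3 and Il6 after PBS, and Thbd after Con A, had mean levels under the array medians, where expression is not established. Of 8 measured genes that they lower elsewhere, 4 rose and 0 fell, with a median of 0.94: tissue factor gene F3 rose by 3.19, Il6 by 2.93 and Tnf and Vcam1 by 1.15 each. Dropping PBS replicate 3 gave 6 rises, dropping Con A replicate 2 gave 3 and the unmoderated test 1. Klf2, Tnf and F3 were all higher after Con A, and a link between them was not tested.

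**Figure D4:**
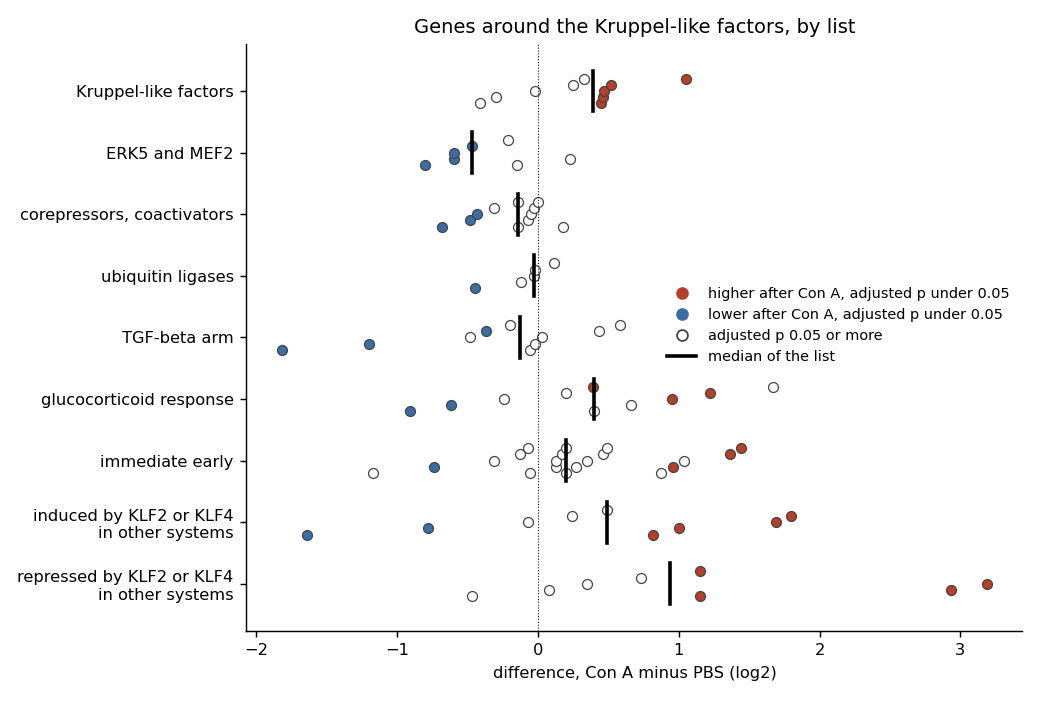
Difference between Con A and PBS (horizontal axis, log2) of every measured gene in the family and in 8 related lists, with filled points for genes past the adjusted threshold of 0.05 and a bar at each list's median. The ERK5 and MEF2 list holds 4 filled points below 0 and none above, and the list of genes lowered elsewhere by KLF2 or KLF4 holds 4 filled points above 0 and none below.

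The sorting markers differed little, with Itgam (CD11b) at 12.77 ± 0.04 after Con A and 12.92 ± 0.15 after PBS (SD, n = 3 each) and 0 of 4 sort markers past the threshold. Some lists of other cells moved with the groups. Of 11 eosinophil, basophil and mast cell markers 6 rose and 0 fell, and their mean level ranged from 8.44 to 9.27 on the Con A arrays and from 7.68 to 8.24 on the PBS arrays. With arrays centred on their medians, and with a trended and robust variance, 3 rose, and in the unmoderated test 1. The rises numbered 8 without Con A replicate 2, 5 without PBS replicate 2 and 2 when any of the other arrays was dropped. Of 17 granulocytic markers 1 rose and 2 fell. T cell, dendritic and hepatocyte markers had 0 genes past the threshold by limma, of 11, 10 and 11 measured (1, 1 and 0 at an unadjusted p under 0.05). Single arrays still stood apart in the hepatocyte and dendritic lists. Hepatocyte list means ranged from 6.64 to 7.45 after Con A and from 6.57 to 6.64 after PBS. Alb was at 11.17 on Con A replicate 2 and at 8.69 to 9.10 on the other arrays. Cd209a, a dendritic marker, was at 11.52 and 11.13 on replicate 3 of Con A and of PBS, and at 9.14 to 9.37 on the other arrays. Of 15 Kupffer cell markers 1 rose and 2 fell, of 8 NK cell markers 1 rose, of 8 B cell markers 1 fell, while 13 markers of endothelial or stellate cells gave 1 rise and 2 falls. The Kupffer rise was that of Mrc1, which is also counted above among genes raised elsewhere by KLF2 or KLF4. The mean level of the Kupffer list ranged from 8.05 to 9.36 after Con A and from 8.13 to 8.44 after PBS. Vsig4, a Kupffer marker, was at 10.12 on Con A replicate 2 and at 6.47 to 8.35 on the other arrays. Of 6 platelet and erythroid markers 2 rose, and their mean level ranged from 7.11 to 8.56 after Con A and from 6.81 to 7.33 after PBS. Normalised log2 values have no zero, so no marker could be called absent. The part of these cells in the Klf values was not tested.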

How the data were processed

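Array intensities had been turned into log2 values by the authors before they were deposited. The submitters' processing notes name RMA and Partek and give no version, and the labels' protocols give whole-transcriptome amplification of total RNA and biotin labelling. No genome build is given for the array in the sources used here. RMA is known to shrink differences of dim probes. Precision is limited by having 3 arrays per group.

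Of 35556 rows, 21789 carry 1 gene symbol in the platform annotation. Several symbols stand on 1621 rows and none on 12146, and these were left out. The row with the highest mean stood for a gene, which left 19938 genes. Con A minus PBS was fitted by limma 3.58.1 (R 4.3.3, lmFit and eBayes, two-sided, all 6 arrays) with Benjamini-Hochberg adjustment over all genes. The code of the fit was tried on simulated data with independent noise and few changed genes. That trial does not measure the error rate on these arrays. Tables and plots used Python 3.11.15, pandas 2.3.3 and matplotlib 3.10.9. Promoter windows are those of RefSeq on GRCm38.p6, searched on both strands.

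The members and the 23 gene lists were chosen with earlier results of these data known. All 10 members are named, every measured Klf or Sp gene may be, and other lists give up to 4 genes with the largest difference past the threshold. Ctbp1, Ctbp2, Sin3a, Wwp1, Tgfb1, Alb, Cd209a and Vsig4 were added after their values were seen. The 15 alternatives were another quantile normalisation, median centring, a filter on dim genes, other treatments of several rows per gene, other variance models, array weights, the replicate number as a block, and each array left out.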

Additional observations from a re-analysis of the deposited data

How the results depend on the processing

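Under the 15 alternatives 9 of the 10 members kept the sign of their difference in every one. The exception was Klf13, whose small negative difference became 0.002 with quantile normalisation repeated, 0.015 with array weights, 0.041 without Con A replicate 2 and 0.020 without PBS replicate 3. With 1 array left out it ranged from -0.093 to 0.041, and it stayed at adjusted p between 0.655 and 0.995 over all alternatives. The count of members that rose was 5 in the fit reported and 2 in the unmoderated test, where Klf9 and Klf7 passed and Klf2, Klf8 and Klf11 had adjusted p of 0.11, 0.084 and 0.123, and with 1 array left out it ranged from 2 to 6. The count that fell was 0, and became 1 with array weights (Klf10) and 1 with the replicate block (Klf4). Over all genes the count was 2355, against 671 in the unmoderated test, and with 1 array left out it lay between 1140, when PBS replicate 1 was dropped, and 2765, when PBS replicate 3 was. The rescaling alternatives moved the median difference of all genes, 0.024, to at most 0.032, and the share of calls that were rises from 38.9% to 44.4%. With the replicate block 2539 genes passed. Deviations from the group means correlated at 0.23, -0.17 and 0.56 between arrays of the same number, so the numbers are not shown to pair the samples, and the crossed pair of Con A replicate 1 with PBS replicate 2 reached 0.54. The cause of these changes was not tested. Counts of 12 other lists, and the genes that the naming rule took from them, were run under the same alternatives, added after the data were seen. The sort-marker, granulocytic, Kupffer, dendritic, T cell, NK, B cell, hepatocyte, endothelial and platelet lists were not, nor were the genes added outside the rule. Arg1 had no value once dim genes were left out. Among genes called in these lists, Mapk7, Map3k2, Smad3, Tgfbr1, Cebpd, F3, F13a1, Cx3cr1 and Kit passed in all 15. By contrast Mef2d, Fhl3, Smad2, Maff and Irf8 passed in 10 and Sin3b, Itch and Myc in 9. Epx and Prg2, of the eosinophil, basophil and mast cell list like Kit, passed in 7. With the replicate block the immediate early list had 6 rises and 2 falls, and the glucocorticoid list 5 rises.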
